A study of Mus musculus with 207 samples.

Results

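The Slco genes encode the organic anion transporting polypeptides, and 5 of them were read across 6 diets in the mouse liver libraries of a diet study. All 5 carried reads in every liver library, as did Slco3a1 and Slco4a1. The 5 were taken by name: Slco1a1, Slco1a4, Slco1b2, Slco2a1 and Slco2b1, out of 55536 genes in the liver table and out of 15 annotated Slco genes. RNA-seq was made from liver, jejunum and hypothalamus of C57BL/6 mice fed WPI or CAS as the protein source, each with the label 30 for protein and with a fat label of 20, 40 or 55. The labels give the abbreviations and numbers only, with no units; WPI and CAS are read here as whey protein isolate and casein, the whey and curd proteins of milk. In liver and jejunum WPI FAT-20, WPI FAT-40 and WPI FAT-55 had 12 mice each, and CAS FAT-20, CAS FAT-40 and CAS FAT-55 had 11, 12 and 11. In hypothalamus the WPI groups had 11, 11 and 12 mice and the CAS groups 10, 12 and 11, in the same order of fat. By its title, the series asks whether protein source and protein intake shift the effect of fat in the diet on body weight and on tissues. The labels give no sex, age, genotype, treatment time or batch, all mice share the strain, and mice share identifier stems (4 a diet in liver) whose meaning is not stated, so p-values measure the spread between these mice.

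Organic anion transporting polypeptides sit in the plasma membrane and carry bile acids, steroid and thyroid hormone conjugates, bilirubin, prostaglandins and many drugs into cells without direct use of ATP. In mouse hepatocytes Slco1a1, Slco1a4 and Slco1b2 encode the main uptake carriers on the blood side, and Slco1b2 is the mouse counterpart of the human liver carriers OATP1B1 and OATP1B3. Slco1a1 is known as a male-biased gene of mouse liver that depends on the pulsed pattern of growth hormone, while Slco1a4 is also found at the blood-brain barrier and is known to respond to the xenobiotic receptor PXR. Slco2a1 encodes the prostaglandin transporter, known from endothelial cells and other cell types, and Slco2b1 encodes a carrier of sulfated steroids found in many tissues.

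Slco1a1 (ENSMUSG00000041698) lies on the minus strand at chr6:141907282-141946962 of GRCm38, Slco1a4 (ENSMUSG00000030237) on the minus strand at chr6:141805440-141856199, and Slco1b2 (ENSMUSG00000030236) on the plus strand at chr6:141629518-141686646. Slco2a1 (ENSMUSG00000032548) lies on the plus strand at chr9:102988712-103096002 and Slco2b1 (ENSMUSG00000030737) on the minus strand at chr7:99657804-99711340. The 250 bases before the RefSeq start of the 3 neighbours on chromosome 6 are shown because they lie in 1 cluster and their mRNAs went different ways with fat on CAS (-2.75, 0.89 and 0.12 in log2 units at FAT-55 against FAT-20 for Slco1a1, Slco1a4 and Slco1b2, the last not called). They are chr6:141946963-141947212 (minus strand), chr6:141856221-141856470 (minus strand) and chr6:141629268-141629517 (plus strand) of GRCm38.p6, written 5′ to 3′ on the gene's strand, with the last base at position -1 and motif matches in capitals.
Slco1a1: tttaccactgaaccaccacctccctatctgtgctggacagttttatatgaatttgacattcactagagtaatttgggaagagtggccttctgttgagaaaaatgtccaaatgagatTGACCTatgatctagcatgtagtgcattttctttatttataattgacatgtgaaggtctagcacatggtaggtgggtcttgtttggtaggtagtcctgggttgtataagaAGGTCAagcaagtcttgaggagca
Slco1a4: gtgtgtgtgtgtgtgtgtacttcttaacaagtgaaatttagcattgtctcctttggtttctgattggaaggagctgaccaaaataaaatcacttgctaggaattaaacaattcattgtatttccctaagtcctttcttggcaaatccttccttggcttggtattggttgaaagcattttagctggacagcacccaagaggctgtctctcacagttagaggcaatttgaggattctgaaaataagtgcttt
Slco1b2: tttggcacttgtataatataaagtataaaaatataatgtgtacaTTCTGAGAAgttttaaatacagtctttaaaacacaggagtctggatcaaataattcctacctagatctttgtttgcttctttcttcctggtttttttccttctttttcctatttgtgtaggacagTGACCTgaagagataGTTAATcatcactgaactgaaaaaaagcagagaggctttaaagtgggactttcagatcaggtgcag

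All 5 genes matched the RefSeq promoter table, with 7 start sites in all, and 4 motifs were searched on both strands. TTCNNNGAA, the palindrome of the STAT5 type, is held by 7.02% of 32851 such windows, TGACNNNGC, the core of the antioxidant response element, by 10.2%, AGGTCA, the hexamer bound by nuclear receptors, by 14%, and GTTAAT, a hexamer of the HNF1 type, by 6.43%. The Slco1a1 window held AGGTCA from -24 to -19 on the gene's strand and, printed as TGACCT, from -134 to -129 on the other strand. In the Slco1b2 window the matches were TTCTGAGAA from -206 to -198, TGACCT from -81 to -76 and GTTAAT from -66 to -61. No letters of the 4 motifs were found in the windows of Slco1a4 and Slco2a1, and 1 of the 3 windows of Slco2b1 held TTCCGGGAA from -133 to -125. No match overlapped another, and a match is only a run of letters.

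Liver libraries held 21 to 41 M reads on genes (median 26.4), jejunum libraries 17.5 to 23.8 (median 22.9) and hypothalamus libraries 14.4 to 16.1 (median 14.8), and no 2 libraries of a tissue were identical. In liver 15051 genes passed the filter on low counts and were tested, all 5 members among them. Liver values below are CPM, counts relative to the library size after scaling by the trimmed mean of M values, and a log2 fold change is called where the adjusted p of edgeR's quasi-likelihood test was below 0.05. In such pieces of tissue, fewer cells of a type and less RNA per cell cannot be told apart.

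Per kilobase of exon, Slco1b2 was the most abundant of the 5 mRNAs in liver, with a median of 340.8 unscaled CPM per kilobase over 70 livers. Slco1a1 followed at 55.04, Slco2b1 at 23.6, Slco1a4 at 9.38 and Slco2a1 at 3.84 unscaled CPM per kilobase. Slco1b2 stood above Slco1a1 in 70 of 70 livers and Slco2b1 above Slco1a4 in 70 of 70. The order of Slco1a1 and Slco2b1 was less fixed, since Slco1a1 was above in 52 of 70 livers, and Slco1a4 was above Slco2a1 in 63 of 70.

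Slco1a1 mRNA fell steeply with fat in livers of mice fed CAS, while on WPI the 3 fat levels were much closer. On WPI the CPM ran from 230 to 416 at FAT-20 (median 343), from 72.8 to 525.9 at FAT-40 (median 343) and from 41.3 to 349 at FAT-55 (median 228). On CAS it ran from 345 to 584 at FAT-20 (median 520), from 92.4 to 463 at FAT-40 (median 165) and from 4.82 to 179 at FAT-55 (median 41.5). All 11 CAS FAT-55 livers lay below the lowest CAS FAT-20 liver, and they spread widely among themselves. On WPI 11 of 12 FAT-55 livers lay below the FAT-20 median and 6 below the lowest FAT-20 liver. The group means were 69.8 ± 64.8 CPM in CAS FAT-55 and 470 ± 87.8 in CAS FAT-20 (SD, n = 11 each), and the log2 fold change was -2.75 ± 0.38 (SE, adjusted p = 3e-08). At FAT-40 against FAT-20 on CAS, Slco1a1 fell by 1.243 ± 0.35 on the log2 scale (adjusted p = 0.0046, and 3.9e-05 to 0.098 over the alternatives). At FAT-55 against FAT-40 on CAS it fell by 1.51 ± 0.36 (adjusted p = 0.0084, and 0.0022 to 0.22 over the alternatives), with 3.6% of all genes called, and this call was lost in a fit of these 2 groups alone. On WPI the log2 fold change was -0.62 ± 0.34 at FAT-55 against FAT-20 (adjusted p = 0.17, and 0.067 to 0.40 over the alternatives, 95% interval -1.30 to 0.05). At FAT-40 against FAT-20 on WPI it was 0.01 ± 0.34 (adjusted p = 0.99, 95% interval -0.66 to 0.68). WPI livers were thus nearer to their own low-fat level, and at FAT-55 Slco1a1 was higher on WPI than on CAS, by 1.63 ± 0.36 (adjusted p = 0.0014), with 11 of 12 WPI livers above the CAS median. At FAT-20 the order was turned, with 12 of 12 WPI livers below the CAS median, but the log2 fold change of -0.50 ± 0.35 was not called (adjusted p = 0.55, and 0.045 to 0.87 over the alternatives, the lowest from a fit of these 2 groups alone). Averaged with equal weight over the 3 fat levels, the WPI minus CAS difference was 0.63 ± 0.20 (adjusted p = 0.025, and 0.017 to 0.17 over the alternatives). That average holds the opposite sign at FAT-20. Mice share identifier stems, and with counts summed over each stem the calls at FAT-55 against FAT-40 on CAS (adjusted p = 0.22), for WPI against CAS at FAT-55 (1.55, adjusted p = 0.069, the highest of 0.00023 to 0.069) and for WPI against CAS over fat levels (0.61, adjusted p = 0.17) were lost.

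**Figure D1:**
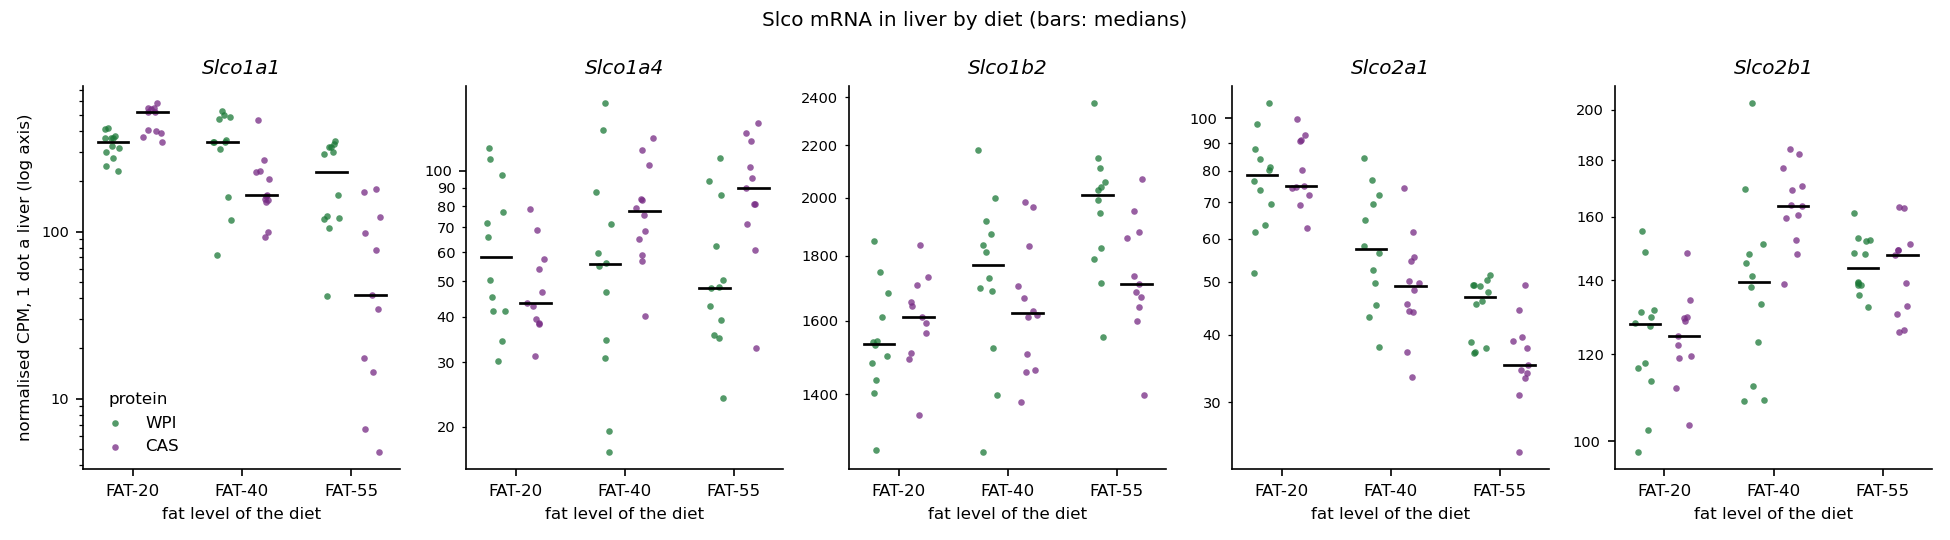
Liver CPM of each Slco gene (log axis) by fat level, with WPI to the left of CAS at each level; each dot is 1 liver and each bar a group median. Slco1a1 on CAS drops to a median of 41.5 CPM at FAT-55, against 520 at FAT-20, and Slco2a1 falls on both proteins.

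Slco1a4, the neighbour of Slco1a1 in the same gene cluster, moved the other way on CAS and was not called for fat on WPI. On WPI the CPM ran from 30.2 to 115 at FAT-20 (median 58.2), from 17.1 to 153 at FAT-40 (median 55.5) and from 24.0 to 109 at FAT-55 (median 47.9). On CAS it ran from 31.2 to 78.6 at FAT-20 (median 43.7), from 40.1 to 123 at FAT-40 (median 77.6) and from 32.9 to 135 at FAT-55 (median 89.6). The groups overlapped in every pair, and 10 of 11 CAS FAT-55 livers were above the CAS FAT-20 median. Slco1a4 rose by 0.89 ± 0.27 at FAT-55 against FAT-20 on CAS (adjusted p = 0.0052) and by 0.69 ± 0.26 at FAT-40 (adjusted p = 0.036). The FAT-40 call was lost with any 1 of 9 libraries left out, which were CAS FAT-40 replicates 3, 4 and 6 and CAS FAT-20 replicates 1, 4, 6, 7, 8 and 10, with values of 0.62 to 0.68, and the adjusted p was 0.003 to 0.15 over the alternatives. On WPI the log2 fold change was -0.21 ± 0.25 at FAT-55 (adjusted p = 0.59, 95% interval -0.71 to 0.29) and -0.03 ± 0.25 at FAT-40 (adjusted p = 0.96, 95% interval -0.53 to 0.46). WPI against CAS at FAT-55 gave -0.69 ± 0.26 (adjusted p = 0.059), just outside the threshold, and it was called, at -0.82 to -0.69, without WPI FAT-55 replicate 7, 8 or 9, CAS FAT-55 replicate 1 or 3 or WPI FAT-40 replicate 1, 2 or 6.

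Slco1b2, the most abundant of the 5, stayed within a narrow band and rose modestly with fat on WPI. On WPI its CPM ran from 1265 to 1849 at FAT-20 (median 1534), from 1261 to 2182 at FAT-40 (median 1771) and from 1552 to 2373 at FAT-55 (median 2009). On CAS it ran from 1347 to 1837 at FAT-20 (median 1611), from 1379 to 1984 at FAT-40 (median 1622) and from 1398 to 2069 at FAT-55 (median 1708). In WPI FAT-55, 12 of 12 livers were above the WPI FAT-20 median and 8 above its highest liver. The log2 fold change was 0.34 ± 0.07 at FAT-55 against FAT-20 on WPI (adjusted p = 9.2e-05), and on CAS it was 0.12 ± 0.07 (adjusted p = 0.18, 95% interval -0.02 to 0.26). That the rise was called on WPI alone does not show a difference between proteins, since the test of the difference gave 0.22 ± 0.10 (adjusted p = 0.15).

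Slco2a1, the prostaglandin transporter gene, fell with fat on both proteins. On WPI the CPM ran from 51.9 to 106 at FAT-20 (median 78.6), from 37.9 to 84.4 at FAT-40 (median 57.4) and from 37.0 to 51.4 at FAT-55 (median 47.0). On CAS it ran from 62.8 to 99.8 at FAT-20 (median 75.04), from 33.4 to 74.3 at FAT-40 (median 49.1) and from 24.4 to 49.4 at FAT-55 (median 35.2). At FAT-55 all 12 WPI livers and all 11 CAS livers lay below the lowest FAT-20 liver of the same protein. Such a gap in the lower direction was seen in 0.226% of 15049 genes on WPI and in 2.27% on CAS, where Slco1a1 also showed it. Slco2a1 fell by 0.79 ± 0.11 at FAT-55 against FAT-20 on WPI (adjusted p = 1.7e-07) and by 1.14 ± 0.12 on CAS (adjusted p = 7.7e-12). At FAT-40 it fell by 0.39 ± 0.11 on WPI (adjusted p = 0.019, and 0.011 to 0.21 over the alternatives) and by 0.69 ± 0.11 on CAS (adjusted p = 2.4e-06). At FAT-55 against FAT-40 it fell by 0.40 ± 0.11 on WPI (adjusted p = 0.037, with 2.29% of all genes called) and by 0.45 ± 0.11 on CAS (adjusted p = 0.014). Both of these calls were lost with a random effect for the identifier stem (adjusted p = 0.21 on WPI and 0.085 on CAS) and with stem sums (0.39 and 0.22), in ranges over the alternatives of 0.024 to 0.39 on WPI and 0.0068 to 0.22 on CAS. The WPI call of that last step was lost with any 1 of 11 libraries left out, which were WPI FAT-40 replicates 1, 2, 3, 8 and 9 and WPI FAT-55 replicates 2, 5, 6, 7, 8 and 10, with values of -0.40 to -0.34. The FAT-55 responses on WPI and CAS differed by 0.34 ± 0.16, which was not called (adjusted p = 0.18, 95% interval 0.03 to 0.66).

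Slco2b1 rose a little with fat, and the largest rise was at FAT-40 on CAS. On WPI its CPM ran from 97.9 to 155 at FAT-20 (median 128), from 109 to 203 at FAT-40 (median 140) and from 132 to 161 at FAT-55 (median 144). On CAS it ran from 103 to 148 at FAT-20 (median 125), from 139 to 184 at FAT-40 (median 164) and from 126 to 163 at FAT-55 (median 148). In CAS FAT-40, 12 of 12 livers were above the CAS FAT-20 median and 10 above its highest liver, so the ranges met only at their edges. The rise on CAS did not go on to FAT-55, where 0 of 11 livers were above the CAS FAT-40 median and 4 below its lowest liver. That step from FAT-40 to FAT-55 was not called. The log2 fold change at FAT-40 against FAT-20 was 0.17 ± 0.07 on WPI (adjusted p = 0.14) and 0.40 ± 0.07 on CAS (adjusted p = 1.1e-05). At FAT-55 against FAT-20 Slco2b1 rose by 0.21 ± 0.07 on WPI (adjusted p = 0.015) and by 0.20 ± 0.07 on CAS (adjusted p = 0.018). With stem sums both FAT-55 calls were lost, at an adjusted p of 0.11 on WPI (0.013 to 0.11 over the alternatives) and 0.10 on CAS (0.0043 to 0.10). WPI against CAS at FAT-40 gave -0.23 ± 0.07 (adjusted p = 0.025), a call lost without WPI FAT-40 replicate 1, 2, 3 or 9 or without CAS FAT-40 replicate 4, at -0.21 to -0.20. Of the 50-base windows of its exons 5.89% also lie in the antisense genes Gm15635 and Gm34280, and the strand setting of the counting is not given, so a share of these reads could be theirs.

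**Figure D2:**
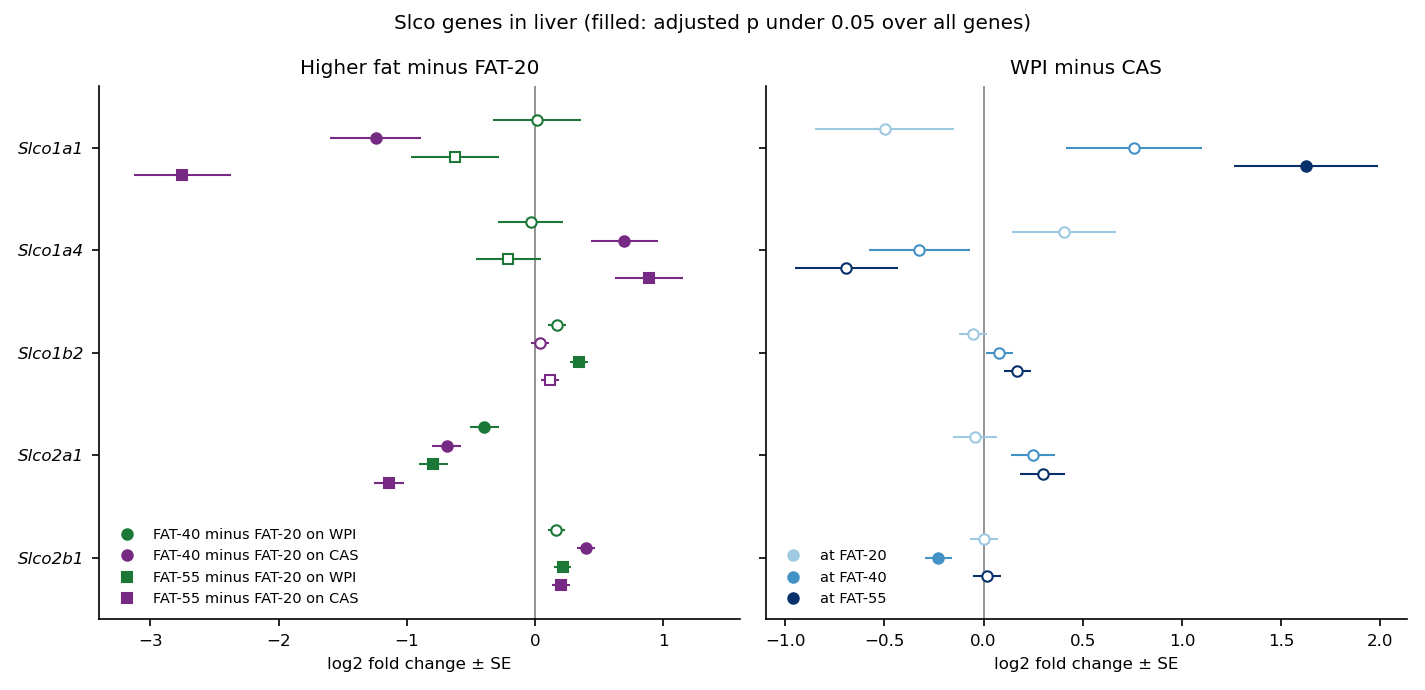
Log2 fold changes (± SE) of the 5 genes in liver for the higher fat levels minus FAT-20 on each protein (left) and for WPI minus CAS at each fat level (right); filled symbols passed an adjusted p of 0.05 over all genes. Slco1a1 on CAS reaches -2.75 at FAT-55, and its WPI minus CAS difference is -0.50 at FAT-20 and 1.63 at FAT-55.

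Counted together, 3 of the 5 genes were called at FAT-55 against FAT-20 on WPI, where 26.6% of all genes tested were, and 4 of 5 on CAS, where 43.3% were. At FAT-40 against FAT-20, 1 of 5 was called on WPI, against 6.54% of all genes, and 4 of 5 on CAS, against 30.2%. With so many genes called, these counts say little about the Slco genes as a group. WPI against CAS gave 0 of 5 calls at FAT-20 (0.512% of all genes), and there 0 of 5 had an unadjusted p under 0.05 and DESeq2 also called 0. At FAT-40 the count was 1 of 5 (8.21% of all genes), at FAT-55 it was 1 of 5 (14.5%) and over the 3 fat levels it was 1 of 5 (14.7%).

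The response of Slco1a1 to FAT-55 differed between the proteins. The FAT-55 minus FAT-20 difference was 2.12 ± 0.50 larger on WPI than on CAS in log2 units (adjusted p = 0.0063, 95% interval 1.15 to 3.10), and it was the 1 call among the 5, with 6.82% of all genes called. For Slco1a4 the same difference was -1.10 ± 0.37 (adjusted p = 0.054 with edgeR and 0.045 to 0.30 over the alternatives, the lowest from DESeq2), of opposite sign and at the edge of the threshold, and it was called with any 1 of 16 libraries left out, at -1.23 to -1.10. For Slco2b1 it was 0.01 ± 0.10 (adjusted p = 0.97, 95% interval -0.18 to 0.21). With counts summed over mice that share an identifier stem, 4 sums a diet, the Slco1a1 difference was 2.06 with an adjusted p of 0.17, and the range over the alternatives was 0.0019 to 0.17. At FAT-40 the corresponding difference was called for 0 of 5 genes by edgeR and by DESeq2, with 1.49% of all genes called, although 3 of 5 had an unadjusted p under 0.05. Slco1a1 had the largest of these 5, at 1.26 ± 0.49 (adjusted p = 0.17).

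Slco1a1 and Slco1a4 share a cluster on chromosome 6. Exact matches in another gene were found for 1.64% and 1.61% of their 50-base exon windows, a count that does not measure how alike their sequences are. The balance of Slco1a1 and Slco1a4 turned over on CAS. In CPM, without division by exon length, the ratio of Slco1a1 to Slco1a4 had a median of 5.32 at FAT-20, 7.63 at FAT-40 and 4.41 at FAT-55 on WPI. On CAS the median ratio was 10.2 at FAT-20, 1.99 at FAT-40 and 0.327 at FAT-55. On the same CPM scale Slco1a4 exceeded Slco1a1 in 1 of 12 WPI FAT-55 livers and in 7 of 11 CAS FAT-55 livers, and in 0 livers of either FAT-20 group. Per kilobase of exon the order can differ. In CAS FAT-55 replicate 4 Slco1a1 stood at 14.53 and Slco1a4 at 12.45 unscaled CPM per kilobase.

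Most male-biased genes of the growth hormone pattern fell on CAS, as Slco1a1 did. Of 20 such genes, all tested and none of them a Slco gene, 0 rose and 17 fell at FAT-55 against FAT-20 on CAS, with a median log2 fold change of -1.41, while 20.7% of all genes fell. On WPI 2 rose and 4 fell, with a median of -0.23, while 12% of all genes fell. At FAT-40 against FAT-20 on CAS 0 rose and 15 fell (median -0.79), while 14.4% of all genes fell. On WPI the same step went the other way, with 4 rising and 0 falling (median 0.27), while 6.54% of all genes were called in either direction. The log2 fold change of Slco1a1 at that step on WPI was 0.01. The median over all genes tested was within 0.009 of 0 in each of the 7 liver comparisons for which lists were counted. Hsd3b5, a steroid dehydrogenase typical of male mouse liver, fell by 4.55 ± 0.78 at FAT-55 on CAS (adjusted p = 3e-06), and its log2 fold change on WPI was -0.17 ± 0.64 (adjusted p = 0.88). Serpina1e, a protease inhibitor gene of the alpha-1-antitrypsin family, averaged 143 CPM in CAS FAT-55 and 4186 CPM in CAS FAT-20, a log2 fold change of -4.87 ± 0.63 (adjusted p = 4.6e-09). On WPI Serpina1e fell by 2.29 ± 0.53 (adjusted p = 0.00075). Mup3, one of the major urinary protein genes, fell by 1.06 ± 0.14 on CAS (adjusted p = 4e-09) and Susd4, a complement regulator, by 1.502 ± 0.19 (adjusted p = 4e-09). The Mup and Serpina1 genes have near-identical copies, so reads could have been split among them. At FAT-55 against FAT-20 the response was larger on WPI than on CAS for 10 of the 20 genes and smaller for 0 (median 1.21, with 3% of all genes larger on WPI), the direction that Slco1a1 took. That count of 10 became 0 with stem sums, 4 with the stem effect and 3 with endothelial and macrophage scores as covariates, while the 17 falling at FAT-55 on CAS became 15, 16 and 13. The 15 falling at FAT-40 on CAS became 4 with stem sums and 7 with the covariates, and the 4 falling at FAT-55 on WPI became 1 with stem sums.

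**Figure D3:**
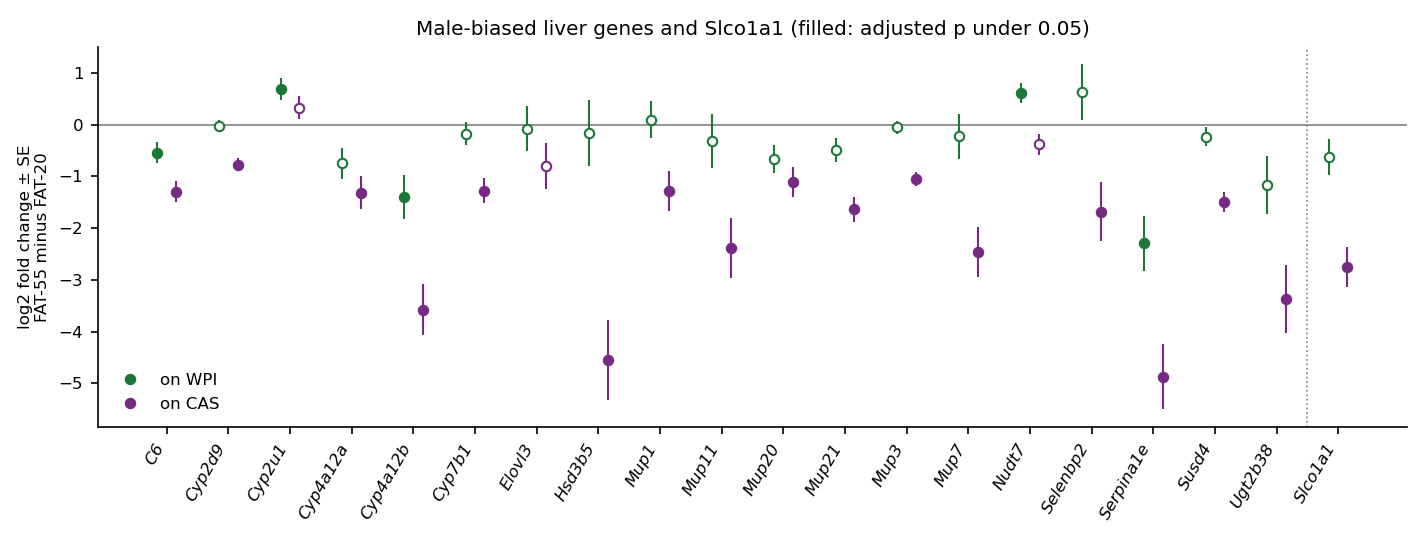
Log2 fold change (± SE) at FAT-55 minus FAT-20 on WPI and on CAS for 19 of the 20 male-biased genes, with Slco1a1 at the right; Moxd1 is left out because it had almost no reads in CAS FAT-55. Most genes lie below 0 on CAS, with a list median of -1.41, and closer to 0 on WPI, with a list median of -0.23.

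The genes whose level ran most like each Slco gene were taken by Pearson r of log2 CPM over the 70 livers among 12354 genes, as a description that includes the diet differences. For Slco1a1 they were Hsd3b5 (r = 0.94), Mup3 (0.90), Cyp4a12b, a male-biased fatty acid hydroxylase (0.88), C8b, a complement component (0.87), and Serpina1e (0.87), and the most opposite was the glutathione transferase gene Gsta1 (-0.80). With diet means subtracted, r with Hsd3b5 was still 0.88. For Slco1a4 they were Bche, encoding butyrylcholinesterase (0.73), Mgst3, a microsomal glutathione transferase (0.72), Idh2 (0.71), Nadk (0.71) and Atp6v0d2 (0.70), with Tspan33 the most opposite (-0.72). For Slco1b2 they included Scrn3 (0.67), Gulo, the last enzyme of vitamin C synthesis (0.66), Nxpe2 (0.65) and Cyp4v3 (0.65), with Isyna1 the most opposite (-0.71). For Slco2a1 they were Epb41l5 (0.87), Mogs, a glucosidase of N-glycan processing (0.86), Gcnt4 (0.85), S100pbp (0.85) and Cspg5 (0.85), and the most opposite was Lgals1, encoding galectin-1 (-0.91). For Slco2b1 they were Srbd1 (0.83), the folate enzyme gene Aldh1l1 (0.83), Ttc38 (0.83), Hmgn2 (0.82) and Pafah2 (0.82), with Amigo1 the most opposite (-0.82).

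Among mice on the same diet the 5 genes were related to one another as well. After subtraction of diet means, 10 pairs were tested over 70 livers by two-sided permutation of 100000 orders, with adjustment over the 10, and r was recomputed without the 2 livers farthest from the median of the first gene. The orders ran over all 70 livers and not within each diet, although the spread could differ between diets. Slco1a1, for example, ran from 2.29 to 7.48 log2 CPM in CAS FAT-55 and from 8.43 to 9.19 in CAS FAT-20. Mice that share a stem are also not fully independent, and these p-values take neither point into account. Slco1a4 and Slco2b1 went together most closely, with r = 0.589 and rho = 0.567 (adjusted permutation p = 0.0001 for each, raw p = 1e-05, the smallest these permutations can give) and r = 0.523 without the 2 livers. That r was positive within each of the 6 diets, at 0.286 to 0.762. Slco1a1 and Slco1a4 were opposed, with r = -0.42 (adjusted permutation p = 0.0014) and rho = -0.41 (adjusted permutation p = 0.00255), and r = -0.441 without the 2 livers. The sign held in 5 of 6 diets, the exception being CAS FAT-20 at 0.017. Slco1a4 and Slco2a1 were opposed too, with r = -0.394 (adjusted permutation p = 0.0028) and rho = -0.335 (adjusted permutation p = 0.0118), and r = -0.382 without the 2 livers, although r was 0.479 in WPI FAT-20. Weaker relations passed for Slco1a1 with Slco1b2 (r = 0.335, rho = 0.375), Slco2a1 with Slco2b1 (r = -0.331, rho = -0.316) and Slco1a1 with Slco2a1 (r = 0.30, rho = 0.321), with adjusted permutation p of 0.00982, 0.00982 and 0.0202 for r and 0.0047, 0.0133 and 0.0133 for rho. Without the 2 livers these r were 0.265, -0.338 and 0.369. Within diets the sign turned in WPI FAT-20 for Slco2a1 with Slco2b1 (0.407) and for Slco1a1 with Slco2a1 (-0.269), and r of Slco1a1 with Slco1b2 ran from 0.0031 to 0.677. For Slco1b2 with Slco2a1 the adjusted permutation p was 0.0423 for r = -0.26 and 0.0541 for rho = -0.241 (r = -0.23 without the 2 livers), with a positive r in 2 of 6 diets, and for Slco1a1 with Slco2b1 it was 0.234 for r = -0.159 and 0.043 for rho = -0.259, with a positive r in 1 of 6. The remaining 2 pairs, Slco1b2 with Slco1a4 and with Slco2b1, passed by neither measure.

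**Figure D4:**
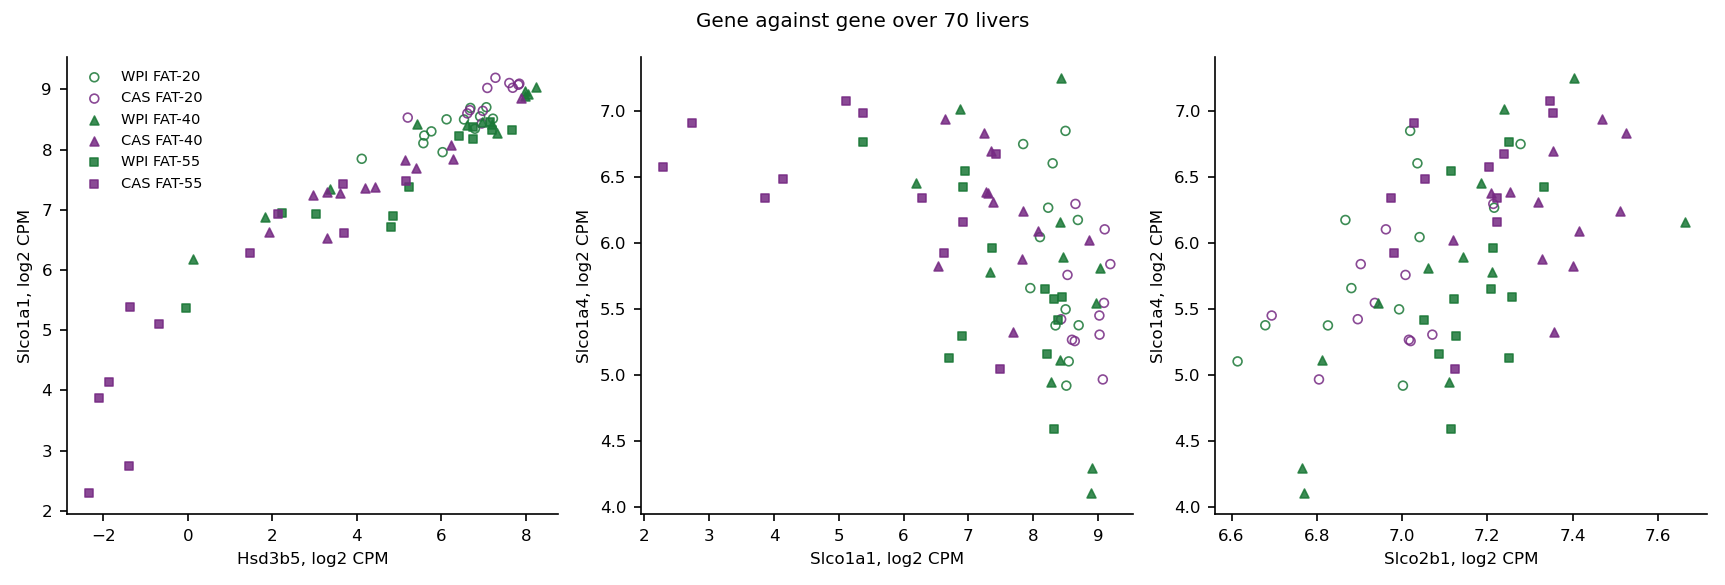
Log2 CPM of Slco1a1 against Hsd3b5, of Slco1a4 against Slco1a1 and of Slco1a4 against Slco2b1, with 1 symbol for each of 70 livers, coloured by protein and shaped by fat level. Slco1a1 follows Hsd3b5 closely (r = 0.94 over all livers), while Slco1a4 runs against Slco1a1 and with Slco2b1.

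Other genes of the pathways around these carriers also moved with fat in liver. Of 25 tested transporters of bile acids and organic ions (29 listed), 6 rose and 3 fell at FAT-55 on WPI (median 0.06), where 14.6% of all genes rose and 12% fell. On CAS 9 rose and 7 fell (median 0.14), where 22.6% of all genes rose and 20.7% fell. Slc10a1, the sodium-dependent bile acid uptake carrier NTCP, averaged 504 CPM in CAS FAT-55 and 754 CPM in CAS FAT-20, a log2 fold change of -0.58 ± 0.09 (adjusted p = 4.5e-07). On WPI the log2 fold change of Slc10a1 was 0.05 ± 0.09 (adjusted p = 0.74). Abcc4, an efflux pump of the blood side, rose by 0.76 ± 0.12 on CAS (adjusted p = 1.3e-06). Slc22a7, an organic anion carrier gene, had a log2 fold change of 0.89 ± 0.25 on WPI (adjusted p = 0.0054), a call lost with stem sums (adjusted p = 0.093, in a range of 0.0032 to 0.093 over the alternatives).

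Bile acid synthesis genes, 10 tested of 11, counted 3 rising and 0 falling at FAT-55 on WPI (median 0.14, with 14.6% of all genes rising and 12% falling). On CAS they counted 1 rising and 3 falling (median -0.18, with 22.6% of all genes rising and 20.7% falling). Cyp7b1, the oxysterol hydroxylase of the alternative pathway and also a male-biased gene, fell by 1.28 ± 0.24 on CAS (adjusted p = 1.3e-05). Acox2, which shortens the bile acid side chain, rose by 0.31 ± 0.08 on WPI (adjusted p = 0.0017) and Cyp2c70, which makes mouse muricholic acids, by 0.84 ± 0.23 (adjusted p = 0.0048), a call that Cyp2c70 lost with stem sums (adjusted p = 0.10, in a range of 0.0036 to 0.10 over the alternatives).

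Some genes known as targets of the xenobiotic sensors rose on each protein, where 14.6% of all genes rose and 12% fell on WPI, and 22.6% rose and 20.7% fell on CAS. Of 10 NRF2 targets, 4 rose and 1 fell at FAT-55 on WPI (median 0.17), and 7 rose and 0 fell on CAS (median 0.76). The difference between the proteins in that response was called for 4, all smaller on WPI, where 3.82% of all genes were smaller, and for 0 with stem sums or the stem effect. With stem sums the risers on WPI were 1 of the NRF2 targets and 2 of the PXR and CAR targets. Nqo1, a quinone reductase, rose by 1.41 ± 0.20 on CAS (adjusted p = 6.7e-08) and Gstm1, a glutathione transferase, by 0.9993 ± 0.12 (adjusted p = 1.1e-09). Of 13 PXR and CAR targets, 6 rose and 0 fell on WPI (median 0.57) and 8 rose and 0 fell on CAS (median 0.66). Gstm3, another glutathione transferase gene, rose by 1.01 ± 0.23 on WPI (adjusted p = 0.00064, and 9.6e-05 to 0.05035 over the alternatives, the highest from stem sums) and by 2.93 ± 0.25 on CAS (adjusted p = 3.8e-14). Of 13 tested female-biased genes (19 listed), 4 rose and 1 fell on WPI (median 0.16) and 6 rose and 1 fell on CAS (median 0.36).

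Of 19 regulators listed for transporter genes, 2 rose and 1 fell at FAT-55 on WPI and 2 rose and 4 fell on CAS (median -0.09 on each), shares that were near or below those of all genes (14.6% rose and 12% fell on WPI, and 22.6% rose and 20.7% fell on CAS). Cebpa, a liver transcription factor gene, fell by 0.41 ± 0.08 on CAS (adjusted p = 1.7e-05) and Nr1h4, the bile acid receptor FXR, by 0.36 ± 0.08 (adjusted p = 0.00038). Stat5b, which relays the growth hormone signal, rose by 0.25 ± 0.07 on CAS (adjusted p = 0.0018). Of 11 tested thyroid hormone genes (12 listed), 3 rose and 0 fell on WPI (median 0.06), and 5 rose and 0 fell on CAS (median 0.20). Dio1, the deiodinase of liver, rose by 0.99 ± 0.14 on WPI (adjusted p = 8.9e-08) and by 0.58 ± 0.14 on CAS (adjusted p = 0.00058). Of 16 tested prostaglandin genes (19 listed), 1 rose and 1 fell on WPI (median -0.06) and 5 rose and 0 fell on CAS (median 0.17), where 20.7% of all genes fell.

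Some cell type markers moved with fat on CAS too, at FAT-55 against FAT-20, where 22.6% of all genes rose and 20.7% fell (14.6% and 12% on WPI). Of 8 hepatocyte markers, 0 changed at FAT-55 on WPI and 4 fell on CAS (median -0.37), and their summed CPM ran from 75290 to 90729 in CAS FAT-55 and from 84123 to 120357 in CAS FAT-20. Of 12 endothelial markers, 1 rose on WPI (median 0.08) and 7 rose on CAS (median 0.25), with summed CPM of 278 to 392 in CAS FAT-55 and 204 to 346 in CAS FAT-20. Of 11 macrophage markers, 0 changed on WPI and 4 rose on CAS (median 0.34), with summed CPM of 382 to 780 in CAS FAT-55 and 247 to 1257 in CAS FAT-20. Of 4 tested fat cell markers (7 listed), 1 rose on WPI (median 0.41) and 4 rose on CAS (median 2.18), with summed CPM of 106 to 350 in CAS FAT-55 and 34.2 to 86.9 in CAS FAT-20, and the defining markers Plin1 and Lep had a median of 0 in every diet. With the endothelial and macrophage scores as covariates, the FAT-55 minus FAT-20 log2 fold change on CAS was -2.27 for Slco1a1 (adjusted p = 5.7e-06) and -0.99 for Slco2a1 (adjusted p = 1.2e-07). For Slco1a4 it was 0.81 (adjusted p = 0.056, and 0.00063 to 0.056 over the alternatives). The part of the hepatocyte and fat cell markers in these results was not tested.

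Of the other Slco genes, Slco3a1 and Slco4a1 passed the filter in liver, and the remaining genes had a median of at most 2 reads a library. Slco3a1, a carrier with wide expression, ran from 3.71 to 4.89 CPM in WPI FAT-55 (median 4.52) and from 3.62 to 7.97 in CAS FAT-55 (median 5.66), and its WPI minus CAS difference was -0.37 ± 0.10 on the log2 scale (adjusted p = 0.0064). At FAT-55 against FAT-20 its log2 fold change was -0.18 ± 0.10 on WPI (adjusted p = 0.16) and 0.26 ± 0.10 on CAS (adjusted p = 0.028), and the 2 responses differed by -0.44 ± 0.14 (adjusted p = 0.04). With the endothelial and macrophage scores as covariates all 3 calls of Slco3a1 were lost, at -0.0033 for the CAS response (adjusted p = 0.99, in a range of 0.025 to 0.99 over the alternatives), -0.25 for WPI against CAS (adjusted p = 0.059, in a range of 0.0037 to 0.14) and -0.26 for the difference of responses (adjusted p = 0.33, in a range of 0.031 to 0.33). They were also lost with stem sums and with the stem effect. Slco4a1 had a median of 11 reads a library and was not called for fat or protein.

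The jejunum held reads of Slco2a1 and Slco2b1 and almost none of the 3 liver genes. Over 70 jejunum libraries Slco1a1 had 1 read in all, Slco1a4 had 77 and Slco1b2 had 114, so their medians were below the level that 3 reads a library would give (0.126 to 0.171 CPM). Per kilobase, the median was 9.76 unscaled CPM for Slco2b1 and 6.09 for Slco2a1, with Slco2b1 above in 67 of 70 libraries. Slco2a1 was above its liver level in 62 of 70 mice with both tissues, at a median ratio of 1.495 in unscaled CPM, and Slco2b1 was above in 0 of 70, at a median ratio of 0.411. The Slco2a1 ratio pools all diets, and the liver level of Slco2a1 fell with fat. Mean scaled CPM of Slco2a1 was 77.9 in liver and 73.7 in jejunum in WPI FAT-20, and 80.3 and 86.2 in CAS FAT-20. In WPI FAT-55 it was 45.0 and 77.6, and in CAS FAT-55 it was 36.6 and 84.0. The tables were scaled separately, so these ratios and means are descriptions.

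In jejunum both genes were called at FAT-40 against FAT-20 on WPI, where 25.8% of 16992 genes were called. Slco2a1 ran from 71.6 to 101 CPM in WPI FAT-40 (median 89.3) and from 54.0 to 95.8 in WPI FAT-20 (median 77.3), a log2 fold change of 0.25 ± 0.09 (adjusted p = 0.028). Slco2b1 ran from 43.9 to 58.3 CPM in WPI FAT-40 (median 53.5) and from 54.6 to 70.9 in WPI FAT-20 (median 59.6), a log2 fold change of -0.20 ± 0.07 (adjusted p = 0.022). The ranges overlapped for each gene, and Slco2b1 was also called at FAT-55 against FAT-40 on WPI, where it rose by 0.28 ± 0.07 (adjusted p = 0.036, with 0.653% of all genes called), a call lost with the stem effect (adjusted p = 0.12) and without the filter on low counts (0.071), in a range of 0.016 to 0.12 over the alternatives. At FAT-55 against FAT-20 on WPI, and at FAT-40 and FAT-55 on CAS, 0 of 2 were called by edgeR or DESeq2 and 0 had an unadjusted p under 0.05, with 30.8%, 25.1% and 27.7% of all genes called. WPI against CAS over the fat levels also gave 0 of 2 by edgeR or DESeq2, with 2 at an unadjusted p under 0.05 and 15.3% of all genes called. Markers of other tissue moved in the same libraries, where 13% of all genes fell: 10 of 10 smooth muscle markers fell (median -1.04, summed CPM 394 to 1218 in WPI FAT-40 and 860 to 4204 in WPI FAT-20) and 6 of 7 fat cell markers fell (median -3.43, summed CPM 96.7 to 236 in WPI FAT-40 and 136 to 726 in WPI FAT-20, with Lep at a median of 0). With those scores as covariates the calls were lost, at 0.33 for Slco2a1 (adjusted p = 0.19, and 0.019 to 0.19 over the alternatives) and -0.29 for Slco2b1 (adjusted p = 0.15, and 0.025 to 0.15). Both values were larger in size than without the scores, and the fit with scores called far fewer genes than the 4378 called without them. Slco3a1, not one of the 5, fell at FAT-55 against FAT-20 in jejunum by 0.52 ± 0.12 on WPI (adjusted p = 0.00039) and by 0.66 ± 0.12 on CAS (adjusted p = 5.2e-05), against the same 2 backgrounds. With the smooth muscle and fat cell scores as covariates it was -0.19 on WPI (adjusted p = 0.56) and -0.48 on CAS (adjusted p = 0.019).

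**Figure D5:**
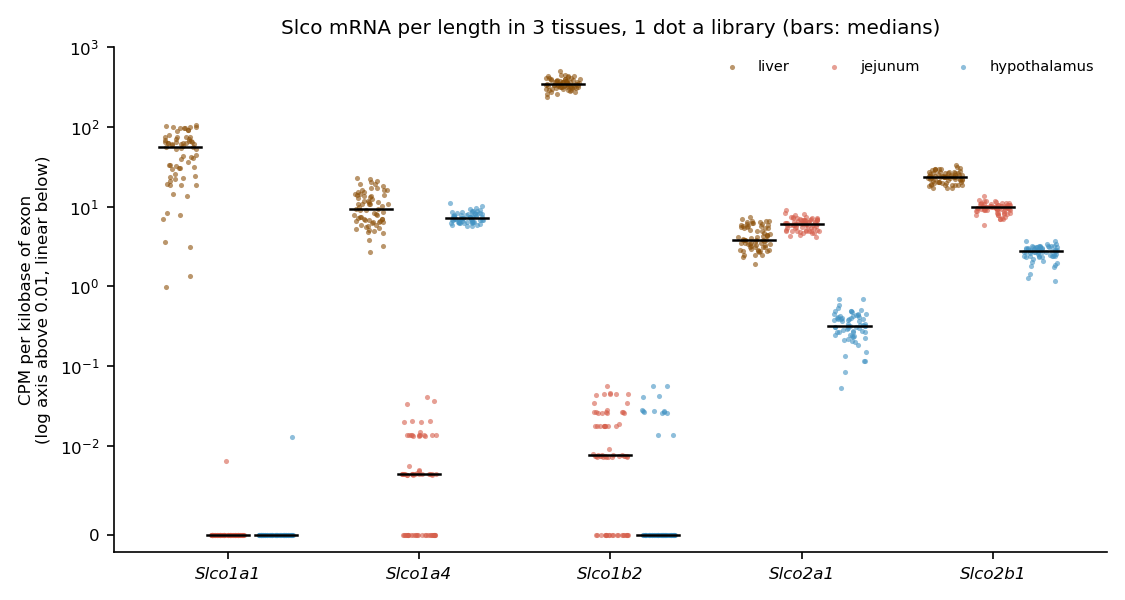
Unscaled CPM per kilobase of exon of each gene in liver, jejunum and hypothalamus (log axis above 0.01, linear below); each dot is 1 library and each bar a median. Slco1a1 and Slco1b2 are near 0 outside liver, and Slco1a4 reads 9.38 in liver and 7.25 in hypothalamus. With all diets pooled, the median of Slco2a1 is higher in jejunum (6.09) than in liver (3.84), where it fell with fat.

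In hypothalamus Slco1a4 was the leading member, as a gene known from brain endothelium. Over 67 libraries its median was 7.25 unscaled CPM per kilobase, against 2.80 for Slco2b1 and 0.323 for Slco2a1, an order that held in 67 of 67 libraries, and Slco1a1 had 1 read in all and Slco1b2 32. The table holds reads divided by size factors, so limma was used on log2(value + 1), which understates changes of low genes, over 14830 genes.

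Slco1a4 was higher on WPI than on CAS over the 3 fat levels, by 0.20 ± 0.05 (adjusted p = 0.017), 1 call among 3 members with 2.15% of all genes called. Its scaled reads ran from 692 to 1254 at FAT-20 (median 777), from 616 to 810 at FAT-40 (median 689) and from 559 to 969 at FAT-55 (median 671) on WPI. On CAS they ran from 579 to 1014 at FAT-20 (median 707), from 520 to 775 at FAT-40 (median 603) and from 561 to 799 at FAT-55 (median 601). The WPI and CAS groups overlapped at each fat level, with 10 of 12 WPI FAT-55 samples above the CAS FAT-55 median. The call was lost with the endothelial score as a covariate (0.18, adjusted p = 0.051) and with a random effect for the stem (adjusted p = 0.36), the range over the alternatives being 0.017 to 0.36. For this contrast 0 of 12 endothelial markers changed (median -0.05, against 0.0055 over all genes).

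At FAT-40 and FAT-55 against FAT-20 on WPI, 2 of the 3 members were called, with 52.5% and 35.3% of all genes called and all-gene medians of 0.12 and 0.10, so changes are read relative to those shifts. edgeR on the recovered whole reads split the calls otherwise, with 2744 genes higher and 3672 lower at FAT-40 (limma 5630 and 2161) and 1258 higher and 1837 lower at FAT-55 (limma 4373 and 866), and it called both members in the same directions. Slco2b1 ran from 127 to 257 scaled reads at FAT-20 (median 196), from 184 to 319 at FAT-40 (median 266) and from 214 to 285 at FAT-55 (median 241) on WPI. It rose by 0.46 ± 0.09 at FAT-40 (adjusted p = 0.00051) and by 0.40 ± 0.09 at FAT-55 (adjusted p = 0.00064). Slco1a4 fell by 0.24 ± 0.09 at FAT-40 (adjusted p = 0.018) and by 0.22 ± 0.09 at FAT-55 (adjusted p = 0.041). Of 12 endothelial markers 8 rose at FAT-40 (median 0.31, with 38% of all genes rising) and 7 at FAT-55 (median 0.35, with 29.5% rising), with summed values of 2797 to 4613 in WPI FAT-20, 3353 to 4593 in WPI FAT-40 and 3497 to 4520 in WPI FAT-55. With the endothelial score as a covariate all 4 calls were lost, at 0.12 and 0.11 for Slco2b1 and -0.15 and -0.14 for Slco1a4, with adjusted p of 0.47 to 0.58. On CAS 0 of 3 members were called at FAT-40 or FAT-55 by limma or by edgeR on recovered reads, with 1 at an unadjusted p under 0.05 each and 0.236% and 2.33% of all genes called; Slco1a4 had log2 differences of -0.22 ± 0.09 (adjusted p = 0.13) and -0.21 ± 0.09 (adjusted p = 0.095). Slco2a1, at 13.2 to 144 scaled reads, was not called in any of these comparisons, with its largest log2 difference on WPI 0.48 ± 0.25 at FAT-40 against FAT-20 (adjusted p = 0.097).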

How the data were processed

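RNA-seq libraries of liver (70), jejunum (70) and hypothalamus (67) were analysed. The submitters' processing notes name Trim Galore 0.61, cutadapt, FastQC, STAR and DESeq2 1.24.0, and GRCm38; the strand setting is not given in the sources used here. The liver and jejunum tables deposited by the authors hold raw read counts per gene. The hypothalamus table holds the authors' scaled signal, reads divided by a size factor (0.712 to 1.08), and 100% of its positive values came back as whole reads within a tolerance of 0.05. Groups came from the labels. Counts were tested with edgeR 4.0.16 (quasi-likelihood test, trimmed mean of M values, filterByExpr with a minimum count of 10) in R 4.3.3, with all diets of a tissue in 1 fit and Benjamini-Hochberg adjustment over all genes tested. Hypothalamus values were tested with limma 3.58.1 on log2(value + 1) for genes with at least 10 in at least 10 libraries. Entries that name no gene (in liver 5.2% ambiguous, 7.71% multimapping, 5.6% without feature and 5.3% unmapped, in jejunum 5.23%, 8.0%, 6.34% and 3.45%) stayed out of library sizes. Alternatives were DESeq2 1.42.0, other scaling, no filter, fits of 2 groups, identifier stems, marker scores and left-out libraries. The fitting steps were tested on simulated data. The members and gene lists were chosen with earlier results of these data known. Genes named beside the 5 are the top members of each list (up to 3, by adjusted p) in WPI against CAS over fat levels or in FAT-55 against FAT-20 on each protein, and the 5 most like and 1 most unlike each member; not all of them are printed. The depths given cover counting error only.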

Additional observations from a re-analysis of the deposited data

Results flagged for a closer look

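The FAT-55 minus FAT-20 response of Slco1a1 in liver differed between the proteins, by 2.12 on the log2 scale for WPI minus CAS (adjusted p = 0.0063 with edgeR and 0.0019 to 0.17 over the alternatives). Slco3a1 in liver differed in the same comparison by -0.44 (adjusted p = 0.04 with edgeR and 0.031 to 0.33 over the alternatives). Slco1c1, a thyroid hormone carrier of brain endothelium and glia, differed in that comparison in hypothalamus by 0.31 (adjusted p = 0.042 with limma and 0.042 to 0.50 over the alternatives). No group small enough for a check of single outlying samples held one among the members; that check covered the 10 hypothalamus samples of CAS FAT-20 alone.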

How the results depend on the processing

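No paired analysis was possible because the labels give no replicate numbers that link mice across diets. Summing counts over mice that share an identifier stem left 4 sums a diet and lost these liver calls: Slco1a1 for WPI against CAS over fat levels (0.61, adjusted p = 0.17), at FAT-55 (1.55, 0.069), in the difference of FAT-55 responses (2.06, 0.17) and at FAT-55 against FAT-40 on CAS (-1.39, 0.22), Slco1a4 at FAT-40 on CAS (0.68, 0.15), Slco2a1 at FAT-40 on WPI (-0.39, 0.21) and at FAT-55 against FAT-40 on WPI (-0.38, 0.39) and CAS (-0.44, 0.22), and Slco2b1 for WPI against CAS at FAT-40 (-0.24, 0.23) and at FAT-55 on WPI (0.23, 0.11) and CAS (0.21, 0.10). A random effect for the stem lost Slco1a4 at FAT-40 on CAS (0.67, 0.097), Slco2a1 at FAT-40 on WPI (-0.41, 0.080) and at FAT-55 against FAT-40 on WPI (-0.37, 0.21) and CAS (-0.44, 0.085), and Slco2b1 at FAT-40 (-0.25, 0.061). Marker scores as covariates lost Slco1a1 at FAT-40 on CAS (-0.78, 0.098), Slco1a4 at FAT-40 (0.63, 0.11) and FAT-55 (0.81, 0.056) on CAS, Slco2a1 at FAT-55 against FAT-40 on WPI (-0.32, 0.14) and Slco2b1 at FAT-40 (-0.23, 0.063). Without the filter, Slco1a4 at FAT-40 on CAS was 0.70 (0.063) and Slco2a1 at FAT-55 against FAT-40 on WPI -0.39 (0.065). A fit of 2 groups lost Slco1a1 at FAT-55 against FAT-40 on CAS (-1.51, 0.064), Slco2a1 at FAT-40 (-0.40, 0.067) and FAT-55 against FAT-40 (-0.40, 0.17) on WPI and Slco2b1 at FAT-40 (-0.23, 0.093). That fit added calls for WPI against CAS in Slco1a1 at FAT-20 (-0.50, 0.045), Slco1a4 at FAT-55 (-0.70, 0.046) and Slco2a1 at FAT-55 (0.29, 0.034), and DESeq2 added the Slco1a4 difference of responses (-1.10, 0.045).

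In liver, signs turned under these settings for uncalled members and Slco3a1: Slco1a1 at FAT-40 on WPI (-0.12 with covariates, -0.17 with the stem effect), Slco2b1 for WPI against CAS at FAT-20 (-0.0050 with stem sums, -4.6e-05 with 2 groups, -0.0011 with the stem effect), its difference of responses (-0.021 with covariates) and Slco3a1 at FAT-55 on CAS (-0.0033 with covariates). With each liver library left out, the ranges that changed a call or sign were -0.063 to 0.11 for Slco1a1 at FAT-40 on WPI, 0.62 to 0.78 and -0.23 to 0.075 for Slco1a4 at FAT-40 on CAS and WPI, -0.82 to -0.62 and -1.23 to -0.99 for its WPI against CAS at FAT-55 and its difference of responses, 0.14 to 0.20 and 0.14 to 0.21 for Slco1b2 at FAT-55 (WPI against CAS) and at FAT-40 on WPI, 0.15 to 0.19, 0.25 to 0.35 and -0.45 to -0.34 for Slco2a1 over fat levels, at FAT-55 and at FAT-55 against FAT-40 on WPI, and -0.034 to 0.032, -0.29 to -0.20, -0.0026 to 0.035 and -0.018 to 0.043 for Slco2b1 at FAT-20, FAT-40, FAT-55 and in the difference of responses. No left-out library moved a called liver log2 fold change of the 5 genes by over 1.5 times, while 12 of the 34 uncalled ones moved by more.

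In jejunum the covariates lost Slco2a1 (0.33, 0.19) and Slco2b1 (-0.29, 0.15) at FAT-40 on WPI. Without the filter Slco2b1 was -0.20 (0.053) there and 0.28 (0.071) at FAT-55 against FAT-40, where the stem effect gave 0.28 (0.12). Uncalled values near 0 turned sign there: Slco2a1 at FAT-55 on CAS (0.045 with covariates) and Slco2b1 at FAT-55 on CAS (-0.045) and WPI (-0.028) with covariates and at FAT-40 on CAS (0.0099 with DESeq2, 0.00032 without the filter, 0.0041 with the stem effect, 0.010 with median-of-ratios scaling). In hypothalamus the endothelial covariate gave 0.18, -0.15 and -0.14 for Slco1a4 over fat levels, at FAT-40 and at FAT-55 on WPI and 0.12 and 0.11 for Slco2b1, the stem effect 0.20, -0.24 and -0.21 for Slco1a4, and no filter -0.22 for Slco1a4 at FAT-55, none of them called, and Slco2a1 over fat levels turned to -0.00075 with a pseudocount of 0.5. Counts of genes called moved by over 1.5 times as follows. Stem sums gave 711 for WPI against CAS over fat levels (2207 in the fit reported), 0 at FAT-20 (77), 64 at FAT-40 (1236), 211 at FAT-55 (2183), 2754 at FAT-40 on CAS (4540), 58 and 2171 at FAT-40 and FAT-55 on WPI (984 and 4005), and 2 and 0 for the differences of responses at FAT-55 and FAT-40 (1027 and 224). The stem effect gave 1207, 7, 490, 1004, 249 at FAT-40 on WPI, 110 and 2. Covariates gave 41, 623 and 1390 at the 3 fat levels, 3594 at FAT-55 on CAS (6520), 166 and 6. No filter gave 30 at FAT-20, 618 at FAT-40 on WPI, 539 and 107, 2 groups gave 51 and 555, and DESeq2 gave 159 at FAT-20 and 357 for the FAT-40 difference. At FAT-40 on WPI in jejunum the covariates gave 29 (4378). In hypothalamus the stem effect gave 86 over fat levels (319), 3247 and 1567 at FAT-40 and FAT-55 on WPI (7791 and 5239), the covariate 36 and 852, and edgeR 3095 at FAT-55. The causes were not tested. Depth sets the limit for the Slco genes near 0 outside liver.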
